A study of Schizosaccharomyces pombe with 15 samples.

Results

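Broad, low regions of Scr1 signal that ran through gene bodies were called in laboratory S. pombe grown in molasses. By the selection rule, no called Wilmar-P peak overlapped them. They were selected on the measured peak positions and widths. Peaks of the 2 laboratory replicate lists that shared at least 1 bp on chromosomes I, II and III were merged, and regions with a peak of both replicates were kept. Of these 3485 regions, 497 had a merged width of at least 1000 bp and shared no base with any peak of the 4 Wilmar-P lists (14.3% of the regions met the rule). The count, the width, the enrichment and the absence of an overlapping Wilmar-P peak are therefore descriptions of what was selected. Comparisons with other regions and genes are given as values with no test. A further 2401 laboratory regions also lacked a Wilmar-P peak but were narrower, and 587 overlapped a Wilmar-P peak.

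Scr1 is a zinc finger repressor that holds genes for the use of poorer carbon sources silent while glucose is plentiful, the process called carbon catabolite repression. Repressors of this family bind short GC-rich elements in promoters and act with corepressors of the Tup family. Chromatin immunoprecipitation followed by sequencing (ChIP-seq) recovers the DNA crosslinked to a tagged protein, and a bound promoter usually gives a narrow peak.

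Scr1 carried a tandem affinity purification (TAP) tag at its own locus in both strains and was recovered with an antibody to Protein A. The laboratory strain, labelled 972h-, carried the tagged allele scr1::TAP-KanMX6 together with the auxotrophic markers leu1-32, ura4-d18 and ade6-m216 in an h+ background. The labels thus disagree on its mating type, and it was grown in molasses. Wilmar-P, an industrial strain used to ferment sugarcane molasses, carried h90 scr1::TAP-KanMX6 and was grown in molasses or in medium with 3% glucose. Each of these 3 groups had 2 biological replicates. Strain and genotype markers other than the tag differed together, so their parts cannot be told apart. The study reports that the Wilmar background lacks some DNA near the ends of chromosome II, including the galactose genes. A missing Wilmar-P peak there cannot be read as missing binding.

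The laboratory lists were longer and lower than the Wilmar-P lists. They held 4239 and 4479 peaks with median enrichments of 1.77 and 1.80 over input, against 228 to 1073 peaks and 2.74 to 5.46 in the 4 Wilmar-P lists. Laboratory peaks covered 18.3% and 19.4% of the genome, and Wilmar-P peaks covered 0.594% to 4.53%. Wilmar-P had broad peaks too. Peaks of at least 1000 bp made up 11.3% and 11.7% of the laboratory lists and 11.2% and 10.9% of the Wilmar-P molasses lists. In the Wilmar-P glucose lists the shares were lower, at 4.92% and 2.19%. The files hold no read numbers, so depth is unknown, and the part of list length in the absence of Wilmar-P peaks was not tested. These are lists of single replicates. From peaks corrected for reproducibility across replicates, the study reports the reverse order in molasses. It found more Scr1 sites in Wilmar-P than in the laboratory strain, and few genes bound in the laboratory strain alone.

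The sequences at the 4 regions with the highest mean −log10 p are shown because they are the clearest members. Each line gives 101 bases of the ASM294v3 reference, 50 to each side of the replicate 1 summit, on the strand of the gene. Capitals in the first mark a stretch of 34 bp that stands 2 times in the window, and capitals in the other lines mark the motif SYGGGG on either strand, where S stands for C or G and Y for C or T.
SPBPJ4664.02 (chrII:696438-696538, plus strand): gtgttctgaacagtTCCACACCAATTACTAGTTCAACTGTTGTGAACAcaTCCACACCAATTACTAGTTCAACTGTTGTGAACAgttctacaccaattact
adn2 (chrII:4401811-4401911, minus strand): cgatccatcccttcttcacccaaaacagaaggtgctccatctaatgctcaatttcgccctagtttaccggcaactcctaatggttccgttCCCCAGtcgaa
mbx2 (chrII:3627600-3627700, plus strand): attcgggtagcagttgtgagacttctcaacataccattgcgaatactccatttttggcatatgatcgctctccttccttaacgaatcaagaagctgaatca
SPBC1652.02 (chrII:4257551-4257651, plus strand): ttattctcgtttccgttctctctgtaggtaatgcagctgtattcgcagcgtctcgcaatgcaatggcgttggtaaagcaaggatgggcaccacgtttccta

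The strongest region lay in SPBPJ4664.02, which encodes a large repetitive glycoprotein of 11916 coding bp. Its enrichment was 2.85 in replicate 1 and 3.65 in replicate 2, the highest replicate 2 value of the set, with −log10 p of 49.6 and 90.4. The same gene held 3 of the 497 regions, including the widest one at 4215 bp (chrII:688054-692268). Within these 3 regions, bases 72 or 144 bp apart were identical at 79.7% to 92.0% of positions, whereas the median over all members at their best spacing between 9 and 150 bp was 30.6%. Reads from such repeats are hard to place, so the position of the signal inside this gene is uncertain.

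Transcription factors came next. The region in adn2, a transcription factor gene, had enrichments of 2.85 and 2.97. Mbx2 is a MADS-box factor that drives flocculation genes, and its region of 1969 bp took in the whole coding sequence with enrichments of 2.69 and 2.60. Both replicates placed the summit in mbx2 close together, at positions 3627650 and 3627691. The amino acid transporter SPBC1652.02 followed with 2.59 and 2.68, and sts5, which encodes a Dis3L2-like ribonuclease, with 2.90 and 2.55.

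The remaining 7 of the 12 strongest regions lay in genes of varied roles. The RNA-binding protein gene cip1 gave 2.68 and 2.64, mtl3 gave 2.29 and 2.69, and the replication origin binding protein gene abp2 gave 2.40 and 2.45. Among enzymes, the protein O-mannosyltransferase gene ogm2 gave 2.55 and 2.46, and the kinase gene ppk38 gave 2.19 and 2.74. The respiratory complex core subunit gene qcr2 gave 2.50 and 2.43. Values for fft2, a Fun30-type chromatin remodeller, differed between the replicates, at 2.73 and 2.03.

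Over all 497 regions the enrichment ran from 1.29 to 2.90 in replicate 1, with a median of 1.92. In replicate 2 it ran from 1.36 to 3.65, with a median of 1.97. The replicate 2 value was the higher in 301 regions, and the replicates were within 0.5 of each other in 470. Spearman's rho between the replicates was 0.49 across regions, which share their libraries and inputs. It was 0.47 in narrow laboratory-only regions and 0.87 in regions that overlapped a Wilmar-P peak. Enrichments in that last class spanned a wider range, up to 31.3, so its rho is not directly comparable. Median −log10 p was 12.03 and 13.4. The best-ranked wide region stood at place 184 in the replicate 1 list and at 111 in the replicate 2 list. Narrow laboratory-only regions had medians of 1.74 and 1.80, with maxima of 10.7 and 9.44. Regions that overlapped a Wilmar-P peak had medians of 2.07 and 2.10, with maxima of 31.3 and 25.2.

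**Figure D1:**
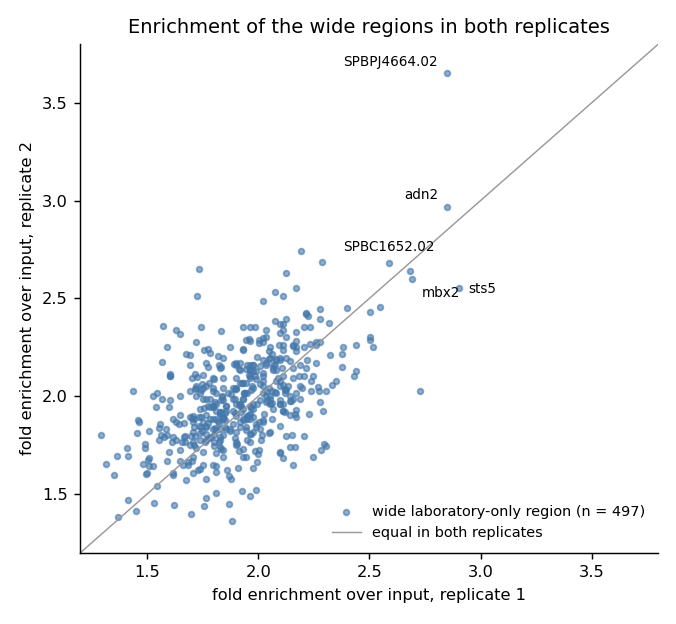
Fold enrichment over input of each of the 497 wide laboratory-only regions in replicate 1 (x axis) and replicate 2 (y axis), with the line of equality. The middle of the regions lies between 1.76 and 2.08 in replicate 1 and between 1.81 and 2.14 in replicate 2, and the region of SPBPJ4664.02 stands apart at 2.85 and 3.65.

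Widths had a median of 1312 bp, and 90% of the regions were under 2128 bp. Together they covered 733093 bp, 5.83% of the 3 chromosomes. Merging contributed to the width. A single peak of at least 1000 bp was present in both replicates for 227 regions, in replicate 1 alone for 97, in replicate 2 alone for 130 and in neither for 43. With the replicate 2 list alone the rule found 368 regions, and with the replicate 1 list alone it found 328. A median of 79.0% of the merged width was called in both replicates, and the stretch called in both reached 1000 bp in 273 regions. Summits were a median of 126 bp apart, compared with 22 bp in regions that overlapped a Wilmar-P peak, which were narrower (median 617 bp) and so left less room between summits.

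The widest regions after that of SPBPJ4664.02 filled most of single long genes. Vigilin (vgl1), a KH-domain RNA-binding protein, had a region of 3731 bp over 96.3% of its coding sequence, with enrichments of 1.96 and 2.28. Rrp5, needed for processing of ribosomal RNA, had 3610 bp, and the Rho1 exchange factor gene rgf3 had 3516 bp. The pyruvate carboxylase gene pyr1, whose enzyme makes oxaloacetate for gluconeogenesis and the citric acid cycle, had 3503 bp over 97.2% of its coding sequence, with enrichments of 1.76 and 2.17. Similar stretches covered the eisosome gene eis1 (3464 bp), the glucosidase gene adg3 (3240 bp) and sts5 (3229 bp), the last over its whole coding sequence.

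At the width threshold, members and excluded regions were alike. The 3 members just inside it lay in dnt1 (1000 bp), ght5 (1000 bp) and rga6 (1001 bp), with replicate 1 enrichments of 1.77, 1.41 and 2.20. The 3 regions just below it lay in svf1 (999 bp), kgd2 (998 bp) and bub1 (998 bp), with 1.76, 1.72 and 1.93.

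Wide regions followed coding sequences closely. Coding exons held 98.5% of their bases, while coding exons make up 56.9% of the 3 chromosomes. The share was 96.3% in narrow laboratory-only regions, 71.8% in regions that overlapped a Wilmar-P peak and 84.1% in the 175 of those that were at least 1000 bp wide. Every base was coding in 409 of the 497 regions. Replicate 1 summits lay in coding exons in 493 regions and replicate 2 summits in 492. Of the members, 493 touched the coding exons of exactly 1 gene, 1 touched those of 2 genes and 3 touched none. Gene strand was even, with 253 regions on genes of the plus strand and 241 on genes of the minus strand.

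The edges stayed inside the gene. Of the 494 regions with a coding gene, 437 lay wholly between its start and stop codons, 20 ran past the start codon and 41 past the stop codon. The region began a median of 228 bp after the start codon (25th to 75th percentile 72 to 658) and ended a median of 107 bp before the stop codon (35 to 483). Summits were spread along the gene body. Their median position was 54.4% of the coding span in replicate 1 (25th to 75th percentile 35.7 to 71.2). In replicate 2 it was 53.8% (33.4 to 72.7). The 393 covered genes, defined below, were chosen for laboratory regions over their coding bases, so a high share in mid-body follows from the choice. Along them, a laboratory replicate 1 peak was present at 2.5% of the span in 16.3% of the genes and at 52.5% of the span in 90.6%. Beyond the stop codon, 25 bp downstream, the share was 4.33%. Over all 2921 genes of at least 1000 coding bp, chosen without regard to peaks, the replicate 1 share was 5.82% at 2.5% of the span, 38.4% at 52.5%, 40.9% at 72.5% and 1.92% at 25 bp downstream.

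**Figure D2:**
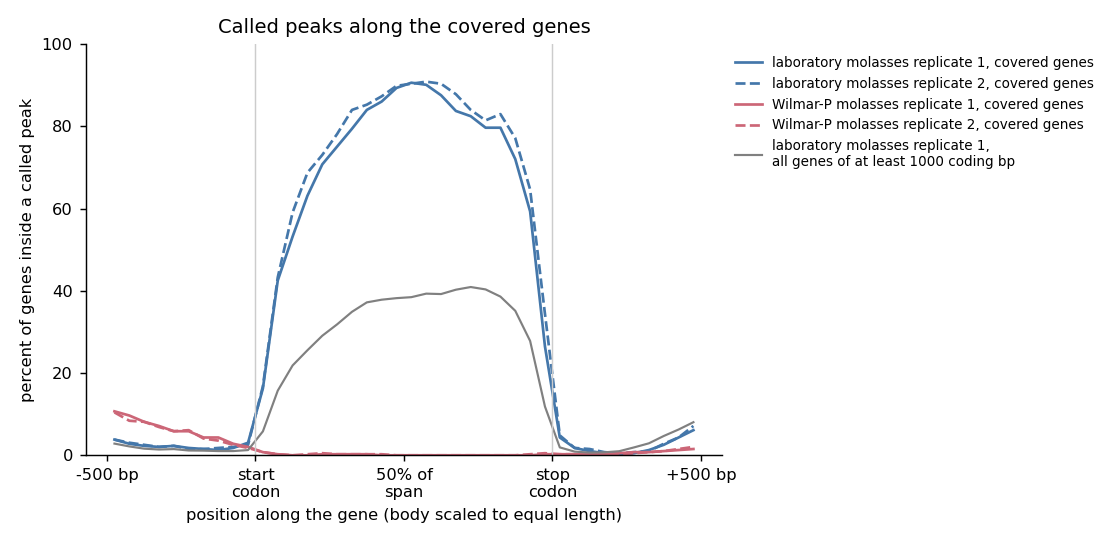
Percent of genes inside a called peak (y axis) at 40 positions from 500 bp upstream of the start codon to 500 bp downstream of the stop codon (x axis, body scaled to equal length), for the 393 covered genes in each molasses list and for all 2921 genes of at least 1000 coding bp in laboratory replicate 1. The laboratory lines of the covered genes reach 90.6% in replicate 1 and the Wilmar-P lines are near 0 in the body, both of which the choice of genes favours, and the line of all genes reaches 40.9%.

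The gene mde7, which encodes an RNA-binding protein, shows how close the edges can come. Its region (chrIII:155945-158182, 2238 bp, enrichments 2.52 and 2.25) began 39 bp after the first base of the coding sequence and ended 9 bp before its last base. The reference around both codons is given below, with 40 bases to each side and the codon in capitals, so the last bases of the first line and the bases just before the capitals of the second are where the called region began and ended.
mde7 start codon (chrIII:155866-155948, plus strand): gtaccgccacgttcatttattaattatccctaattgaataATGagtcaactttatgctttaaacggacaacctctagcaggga
mde7 stop codon (chrIII:158149-158231, plus strand): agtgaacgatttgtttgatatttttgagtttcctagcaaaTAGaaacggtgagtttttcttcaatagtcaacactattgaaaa

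The 3 regions without a coding base all lay over annotated long non-coding RNAs. One was near the right end of chromosome I (chrI:5572809-5573866), with enrichments of 1.81 and 1.61. Another was on chromosome II (chrII:1635741-1637587), with 1.55 and 1.84. The last was near the right end of chromosome II (chrII:4517663-4518981), with 1.35 and 1.60.

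A gene was called covered when at least 0.5 of its coding bases lay in wide regions. This held for 393 of 5113 protein-coding genes (7.69%), and 479 genes had at least 1 coding base in such a region. Coverage of at least 0.8 was reached by 210 genes and of at least 0.9 by 112. All but 1 of the covered genes had at least 1000 coding bp. Most regions lay wholly between the start and stop codons of 1 gene, and a shorter coding sequence cannot hold such a region unless introns lengthen it. The definition itself would also allow a shorter gene to be covered by a region that runs past its ends. Among the 2921 genes of at least 1000 coding bp, 392 were covered (13.4%). The share was 8.17% from 1000 to 1500 coding bp, 20.2% from 1500 to 2000, 15.9% from 2000 to 3000 and 11.9% above that.

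Covered genes had a higher median GC content than the rest. Among genes of at least 1000 coding bp the median GC content of the coding sequence was 41.9% in covered genes and 39.2% in those not covered. GC content was above 40% in 87.0% of the covered and 37.4% of the other genes. When the 2921 genes were ordered by GC content and divided into 10 groups of equal size, no gene of the lowest group was covered, and the shares were 6.16% in group 5 and 32.2% in group 9. In the highest group 32.1% were covered by wide laboratory-only regions and 34.1% by regions that overlapped a Wilmar-P peak. Laboratory regions of any kind covered 84.0% of the genes in that group. The regions were also richer than their surroundings, with a median GC content of 42.2% against 34.5% in the 500 bp to either side, and higher than the flanks in 491 of 497 regions. Base composition can change how well fragments are amplified and sequenced, and its part in the signal was not tested.

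**Figure D3:**
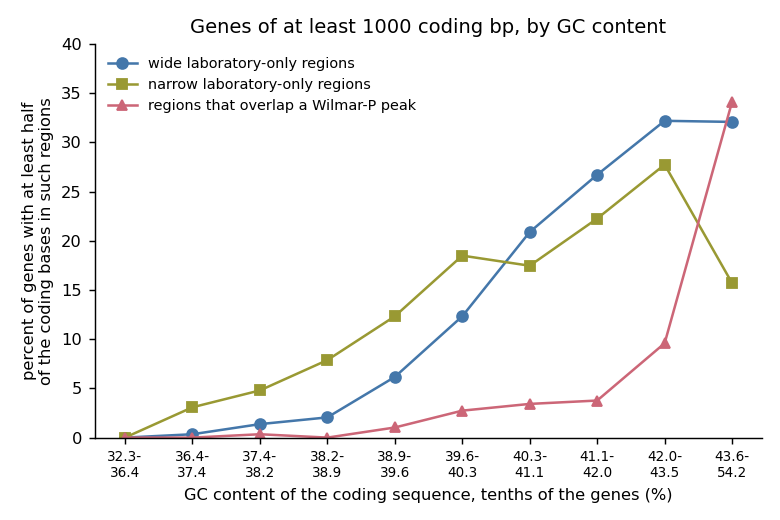
Percent of genes with at least 0.5 of the coding bases in wide laboratory-only regions, narrow laboratory-only regions or regions that overlap a Wilmar-P peak (y axis), in 10 equal groups of the 2921 genes of at least 1000 coding bp by GC content of the coding sequence (x axis, %). The share in wide regions is 0 in the lowest group and reaches 32.2%, and the share in regions with a Wilmar-P peak is largest in the highest group, at 34.1%.

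The codon adaptation index, which measures from 0 to 1 how far a gene uses the codons preferred in the 139 cytosolic ribosomal protein genes, had a median of 0.449 in covered genes and 0.415 in genes of at least 1000 coding bp that were not covered. The genes were also divided by GC content into 3 groups of equal size. In the group with the highest GC content, 31.4% of genes at or above its median index were covered and 28.7% of those below it. In the middle group the shares were 11.9% and 6.98%, and in the lowest group, where few genes were covered, the order turned to 0.411% and 1.03%. Introns were less common, being present in 25% of covered and 45.9% of other genes of this length. In the group with the highest GC content, 32.8% of genes without an intron and 23.7% of genes with one were covered. The shares were 12.1% and 6.29% in the middle group and 1.33% and 0.191% in the lowest.

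The regions lay on all 3 chromosomes. Wide regions stood at 28.0 per Mb on chromosome I, 39.6 on chromosome II and 65.6 on chromosome III. Of the genes of at least 1000 coding bp, 8.22% were covered on chromosome I, 13.3% on chromosome II and 27.2% on chromosome III. Median GC content of these genes was 39.4%, 39.5% and 40.1%. The order of the chromosomes held within each of the 3 groups by GC content, and in the highest group the shares were 21.6%, 30.7% and 45.2%. The part of DNA copy number was not tested.

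SYGGGG lay near few summits. It was within 100 bp of the replicate 1 summit in 32 of 497 regions (6.44%, 95% Wilson interval 4.60 to 8.95, which covers counting error only) and of the replicate 2 summit in 8.65%. Windows 1000 bp to either side of the same summits held it in 5.53% and 5.43%. Of all windows of 201 bp on the 3 chromosomes 5.38% held it, and of those wholly in coding exons 6.76%. In regions that overlapped a Wilmar-P peak the share was 15.7%. These shares describe letters in a window and not binding.

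Genes of carbon catabolite repression serve sugar uptake, sugar breakdown, glycerol use and gluconeogenesis or encode their regulators. Of the 29 listed, all with at least 1000 coding bp, 14 were covered (48.3%, beside 13.4% of all genes of that length), 7 were covered by narrow laboratory-only regions and 2 by regions that overlapped a Wilmar-P peak. Their median GC content was 41.9%, and in the group of all genes with 41.1% to 42.0% GC the covered share was 26.7%. The list was chosen with results of these data known and is no independent evidence.

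The covered genes ranged from 57.8% of the coding sequence in tup11 to 97.1% in ght6. The hexose transporter gene ght6 had a region of 1757 bp over 97.1% of its coding sequence, with enrichments of 1.69 and 1.89. The fructose-1,6-bisphosphatase gene fbp1, whose enzyme is needed for gluconeogenesis, was covered over 91.9% with 1.65 and 2.32, a gap wider than in most members. The glucose receptor gene git3 was covered over 89.9% with 1.99 and 1.66. Scr1's own gene was covered over 94.0% by a region of 1596 bp (chrII:1753608-1755203) with enrichments of 2.10 and 2.18. Both corepressor genes, tup11 and tup12, were also covered, with replicate 1 enrichments of 1.90 and 2.11. The ght genes are close relatives of one another, so reads may be shared between them and their values are uncertain. The study also describes a duplicated stretch with ght5 and ght6 in Wilmar-P.

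Sequence at the summits of scr1 and fbp1 is shown because these genes are known parts of the pathway, and neither window holds SYGGGG. Each line gives 101 reference bases around the replicate 1 summit on the strand of the gene, with no capitals.
scr1 (chrII:1753652-1753752, plus strand): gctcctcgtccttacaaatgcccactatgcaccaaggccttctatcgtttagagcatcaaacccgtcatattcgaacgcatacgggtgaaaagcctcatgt
fbp1 (chrII:198703-198803, minus strand): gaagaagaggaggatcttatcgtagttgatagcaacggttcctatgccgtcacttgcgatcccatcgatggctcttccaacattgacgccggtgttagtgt

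At some of these genes the body region stood beside an upstream peak with a higher enrichment. In both laboratory replicates this held at gld1 and gal1. Enrichments of the 2 strains come from different lists and inputs, so their sizes are not on one scale. Upstream of the glycerol dehydrogenase gene gld1, laboratory peaks reached 8.04 and 7.76 at 819 and 822 bp before the start codon, whereas the region in the gene had 1.96 and 2.29. Wilmar-P peaks in molasses at the same place reached 27.6 and 19.5. Upstream of the galactokinase gene gal1, laboratory peaks reached 5.49 and 5.66, and the region in the gene had 1.74 and 2.65. Wilmar-P peaks in molasses lay upstream of ght5 at 15.7 and 11.7, of gut2 at 8.47 and 6.47, of ght7 at 4.53 and 3.11 and of git3 at 3.69 and 3.38, while no Wilmar-P peak overlapped the regions in these genes. Laboratory replicate 1, but not replicate 2, also had a summit upstream of ght5 at 3.13 and of gut2 at 2.61. In glucose, both Wilmar-P replicates had summits upstream of gld1, ght5 and gut2. Upstream of agl1 only the glucose lists had a summit, at 6.26 and 6.67. Upstream of inv1, the invertase gene that splits sucrose, no summit lay within 1000 bp in any list, and the region in the gene had 1.60 and 1.98. The nearest Wilmar-P peak lay 1466 bp from that region. The window was counted from the start codon and not from the start of transcription, so a promoter peak further upstream would be missed.

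**Figure D4:**
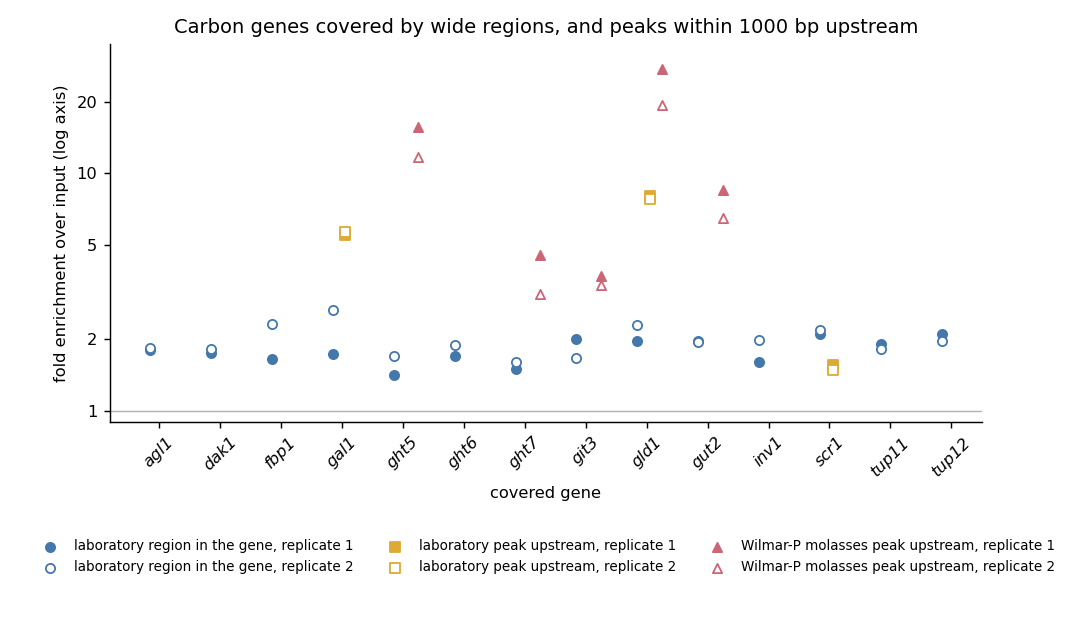
Fold enrichment over input (y axis, log scale) of the wide laboratory region in each of the 14 covered carbon genes (circles), and of laboratory (squares) and Wilmar-P molasses (triangles) peaks whose summits lay within 1000 bp upstream of the start codon in both replicates. Filled symbols are replicate 1 and open symbols replicate 2. Regions in the genes lie between 1.41 and 2.65, and Wilmar-P peaks upstream reach 27.6 at gld1. Values of the 2 strains come from different lists and inputs.

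Some covered genes had a Wilmar-P peak upstream. In molasses both Wilmar-P replicates had a summit within 1000 bp upstream of the start codon at 68 of 392 covered genes of at least 1000 coding bp (17.3%) and at 196 of 2529 other genes of that length (7.75%). In glucose the shares were 5.61% and 2.21%, and in the laboratory lists 9.44% and 6.88%. Most covered genes therefore had no such peak in either strain. Members lay a median of 3404 bp from the nearest Wilmar-P peak, and 112 were within 1000 bp. The nearest were those of the replication factor A gene ssb1 at 38 bp, of mug24 at 74 bp and of rsv2, a zinc finger transcription factor gene, at 88 bp.

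Stress genes formed another group. Of the 14 core stress effector genes of at least 1000 coding bp, 6 were covered (42.9%, beside 13.4% of all genes of that length). The median GC content of these 14 genes was 43.2%, and in the group of all genes with 42.0% to 43.5% GC the covered share was 32.2%. The stress transcription factor gene atf1 was covered over 98.5% with enrichments of 1.98 and 2.35, and the catalase gene ctt1 over 96.4% with 2.11 and 2.15. Enzymes that make or break trehalose, a disaccharide that protects cells, were among them. The trehalase gene ntp1 had 1.92 and 2.17, the synthase gene tps1 had 2.24 and 2.03, and the phosphatase gene tpp1 had 1.89 and 1.99. The heat shock disaggregase gene hsp104 had 2.10 and 2.32.

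Biosynthesis followed at lower shares, to be read beside the 13.4% of all genes of that length. In fatty acid and sterol synthesis 8 of 26 genes of that length were covered (30.8%), led by hmg1, which encodes the rate-limiting reductase of sterol synthesis, over 99.5% with 2.17 and 2.25. The sterol demethylase gene erg11 had 2.50 and 2.30. Amino acid synthesis had 15 of 60 genes (25%), led by ser1 with 1.93 and 2.24 and gdh2 with 2.02 and 2.30. The list was drawn by gene symbol, and not every member makes amino acids. Examples are gdh2, whose NAD-dependent enzyme is known for breaking down glutamate, and trp1322, an ion channel gene that was not covered. Nucleotide synthesis had 4 of 17 genes (23.5%), all of purine synthesis, with ade2 covered over 78.6% and ade6 over 66.3%. Of these, ade6 carries a mutant allele in the laboratory strain. Aminoacyl-tRNA synthetases, which charge tRNAs, had 8 of 36 (22.2%), led by krs1 with 1.97 and 1.94. Median GC content was 41.6% in the fatty acid and sterol list and 41.9% in nucleotide synthesis. Of all genes of that length with 41.1% to 42.0% GC, 26.7% were covered. Amino acid synthesis had a median of 42.7%, and the group with 42.0% to 43.5% had 32.2% covered. The synthetases had a median of 40.4%, and the group with 40.3% to 41.1% had 20.9% covered.

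Protein quality control and energy genes are given for the same length class, of which 13.4% of all genes were covered. Chaperones had 6 of 26 genes covered (23.1%), led by the chaperonin subunit gene cct3 with 1.84 and 1.98 and the cochaperone gene sti1 with 1.76 and 1.77. The proteasome had 4 of 17 (23.5%), of which rpt2, rpt1 and rpt4 encode ATPases of its base. The citric acid cycle had 4 of 17 (23.5%), led by the succinate dehydrogenase gene sdh1 over 91.1% with 2.17 and 2.55. Flocculins and their regulators had 4 of 13 (30.8%), namely mbx2, gsf1, pfl6 and pfl4. Median GC content was 42.5% in chaperones, 43.3% in the citric acid cycle and 42.6% in the flocculin list. Of all genes of that length with 42.0% to 43.5% GC, 32.2% were covered. The proteasome list had a median of 40.5%, and the group with 40.3% to 41.1% had 20.9% covered.

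Other lists ranged from below the 13.4% of all genes of that length up to 18.2%. Ribosome biogenesis had 7 of 53 genes and translation factors 3 of 25. Vesicle coats had 4 of 22 (18.2%), ion pumping ATPases 3 of 17 (17.6%), cell wall synthases 3 of 21 (14.3%) and RNA polymerases 2 of 13 (15.4%). Median GC content was 39.8% in vesicle coats and 40.2% in RNA polymerases, and the group with 39.6% to 40.3% had 12.3% covered. It was 39.4% in ion pumping ATPases and 39.3% in cell wall synthases, and the group with 38.9% to 39.6% had 6.16% covered. One gene each was covered among 8 ABC transporters (atm1), 15 motor proteins (myo1), 26 nucleoporins (nup60) and 18 mating genes (ste7).

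Ribosomal proteins and glycolytic enzymes are made in large amounts in yeast. None of the 139 cytosolic ribosomal protein genes was covered, of which only 5 had 1000 coding bp or more, but 31 were covered by narrow laboratory-only regions and 61 by regions that overlapped a Wilmar-P peak. In glycolysis 1 of 11 genes of at least 1000 coding bp was covered, hxk1 for hexokinase with 1.70 and 1.67, and 11 of all 13 listed genes were covered by regions that overlapped a Wilmar-P peak. In fermentation and the pentose phosphate pathway 3 of 12 genes of that length were covered by wide regions (25%, beside 13.4% of all genes of that length), namely gnd1, gcd1 and pdc201. The median GC content of these 12 genes was 45.8%, and in the highest of the 10 GC groups 32.1% of genes were covered by wide regions. Of all 16 listed genes in fermentation and the pentose phosphate pathway, 4 were covered by regions that overlapped a Wilmar-P peak.

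**Figure D5:**
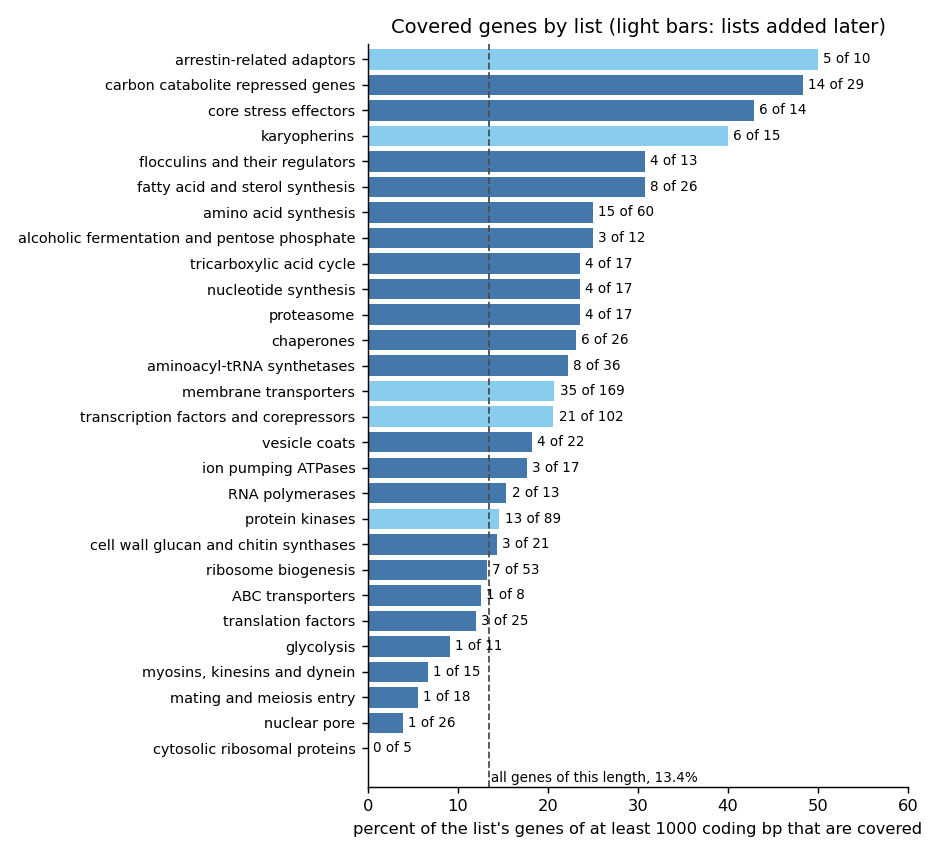
Percent of the genes of at least 1000 coding bp in each list that were covered (x axis, bars, with counts beside them), for every list with 5 or more such genes. The dashed line marks 13.4%, the share of all genes of that length, and carbon catabolite genes stand at 48.3%. Neither the bars nor the line are matched for GC content. Light bars are lists added after the covered genes had been seen.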

How the data were processed

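Scr1-TAP ChIP-seq peak lists of laboratory S. pombe in molasses and of Wilmar-P in molasses or 3% glucose were analysed, 2 replicates each, of 15 samples in the series. Input and RNA polymerase II samples were not used here. The submitters' processing notes name CASAVA 1.8.4, FastQC, cutadapt 1.9.1, the aligner Bowtie2 2.3.1, MACS2 2.1.1, deepTools and the build ASM294v2. Per the methods, adapters were trimmed and peaks were called with MACS2 against input, with a reproducibility correction across replicates, while the lists used here are those of single replicates. The labels give another crosslinking time and other media than the methods. The deposited fold enrichment (a ratio to the local background at the summit) and the deposited −log10 p and −log10 q are the authors' values and were used as given. No read depth was given, so precision per peak is unknown.

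Peaks were merged across replicates (at least 1 bp), and the peak with the highest −log10 p of each replicate represented a region. Genes and sequences came from RefSeq ASM294v3. Its chromosome lengths hold every peak, and 1 peak ends on the last base of chromosome III at 2452883. GC content was that of the coding sequence. Peaks on 2 further reference sequences were kept apart. No test was made, since members were selected by the values described and an exact test of 2 lists against 2 cannot fall below p = 0.333.

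Members and lists were chosen with earlier results of these data known. Patterns of 4 lists (aminoacyl-tRNA synthetases, ABC transporters, ion pumping ATPases, chaperones) and 1 symbol of the cell wall list were corrected after gene names had been seen. Regions and genes were named by rule: the 12 strongest, the 8 widest, 3 on each side of 1000 bp, the 3 nearest a Wilmar-P peak, those without coding bases, and up to 4 covered genes of each list by covered share. Further genes (gal1, gld1, ght5, ght7, gut2, inv1, tup11, tup12, tpp1, hsp104, mde7) and the genes of 5 lists added later were named after their values were seen. The region rule was tested on simulated lists. Python 3.11.15, numpy 2.4.6 and scipy 1.17.1 were used. Alternatives changed the width, the peak thresholds, the overlap, the Wilmar-P lists used, each replicate, the covered share and the motif window.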

Additional observations from a re-analysis of the deposited data

Results flagged for a closer look

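A wide laboratory-only region was found outside the chromosomes compared in the report. On the reference sequence named MTR, which was kept apart from all comparisons, 1 region of 1009 bp was called in both laboratory replicates with enrichments of 1.90 and 1.80 and no overlapping Wilmar-P peak. It was the only one on the 2 further sequences that met the rule, and it was not tested.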

How the results depend on the processing

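Of 104 recomputed values, 73 stayed within 1.5 times the reported count, within the spread between replicates or within the interval of the share, and 31 moved. With a width of at least 800 bp there were 808 regions, with a median enrichment of 1.91, a median coding length of 1636.5 bp and a codon adaptation index of 0.451. With at least 1500 bp there were 171 regions and 152 covered genes, with 2.01, 2268 bp and 0.452. Counting only the width called in both replicates left 273 regions and 241 genes, with 2.0 and 1887 bp. Dropping laboratory peaks enriched less than 2 times gave 126 regions and 104 genes, with 2.17, 98.8% coding bases, 1860 bp, 0.444 and SYGGGG at 11.9% of summits. Regions over 500 bp from any Wilmar-P peak had an index of 0.446. Coverage of at least 0.8 left 210 genes, and SYGGGG within 50 bp was at 2.82% of summits. Fewer regions pass a stricter rule by construction, and the cause of the other shifts was not tested. Leaving out 1 list at a time gave 328 to 541 regions, medians of 1.94 to 1.99, coding shares of 98.2% to 98.7%, 245 to 427 covered genes, lengths of 1744.5 to 1767 bp, indices of 0.449 to 0.454 and SYGGGG shares of 6.37% to 9.24%. The low counts came without laboratory replicate 2, when 328 regions and 245 genes remained, and the high counts without Wilmar-P molasses replicate 2. Carbon catabolite genes with at least 1 covered base numbered 14 as well. Adding the further reference sequences, an alternative chosen after seeing the data, gave 498 regions. No paired analysis was possible because no result comes from a test. Peak lists hold no signal outside peaks, so a missing Wilmar-P peak is not a measured level.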

Other observations

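Lists added after the covered genes had been seen describe what else the wide regions held, with no test. Of 102 transcription factor and corepressor genes of at least 1000 coding bp, 21 were covered (20.6%), beside 13.4% of all genes of that length. Besides those named in the report they included ssn6, the partner of the Tup corepressors, over 96.9% with enrichments of 2.32 and 2.37. They also included the sterol-responsive factor sre1 with 2.22 and 2.43, the iron-sensing repressor fep1 with 2.10 and 1.85, and pho7 with 2.16 and 2.26.

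Membrane transporters had 35 of 169 genes of that length covered (20.7%, again beside 13.4% of all), among them SPCC74.04, annotated for gamma-aminobutyric acid and polyamines, over its whole coding sequence with 2.22 and 2.18. Arrestin-related adaptors, which direct the removal of transporters from the cell surface, had 5 of 10 (50%), among them rod1 with 1.88 and 2.01 and any2 with 2.11 and 2.26. Nuclear import and export receptors (karyopherins) had 6 of 15 (40%), led by sal3 over 96.2% with 1.61 and 1.77. Protein kinases had 13 of 89 (14.6%), beside the same 13.4%, and included nnk1 over 99.1% with 2.33 and 2.06 and the AMP-activated kinase gene ssp2 over 59.6% with 1.83 and 1.91. Median GC content was 42.1% in the adaptors, and of all genes of that length with 42.0% to 43.5% GC, 32.2% were covered. It was 40.4% in the karyopherins, and the group with 40.3% to 41.1% had 20.9% covered. Transporters, kinases and the transcription factor list had 40.3%, 39.8% and 40.2%, and the group with 39.6% to 40.3% had 12.3% covered.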
